A study of Homo sapiens with 9 samples.

Results

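Transcript levels of 38 listed genes of sterol and fatty acid synthesis were examined in the human line ACHN, which is widely used as a model of renal cell carcinoma. The genes were taken by name. They comprise enzymes of the mevalonate and cholesterol pathway, enzymes of fatty acid synthesis, and genes that control both through the transcription factors SREBP and LXR. All 38 were found among the 57773 features of the deposited table. The groups were KO#1 and KO#2, in which ELOVL5, an elongase of polyunsaturated fatty acids, was targeted by CRISPR/Cas9 with one or the other of 2 independent guides, and sgControl, given a control guide. There were 3 libraries each, and the labels name no further agent or genotype. They state neither whether knockout cells were clones or pools nor whether libraries came from separate cultures, so p-values measure the spread between these libraries, which may be technical.

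As background, SREBP precursors sit in the endoplasmic reticulum bound to SCAP, and INSIG proteins hold the complex there while sterols are plentiful. When sterols are scarce, SCAP carries the precursor to the Golgi, where proteases release a fragment that enters the nucleus and activates genes of sterol uptake and synthesis. The product of SREBF2 acts mainly on sterol genes and that of SREBF1 mainly on fatty acid genes, and polyunsaturated fatty acids are known to lower SREBF1 activity in liver cells. LXR, a receptor for oxysterols, activates genes of cholesterol export and lipid transfer, and SREBF1 itself.

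Of these genes, PLTP, which encodes the phospholipid transfer protein of plasma lipoproteins and is a known LXR target, rose with both guides. With all libraries 0 of 18 tested sterol synthesis enzymes and 0 of 7 tested fatty acid synthesis genes passed the test in either comparison with sgControl, where 2.33% (KO#1) and 2.04% (KO#2) of all tested features passed, so these counts are near the background. Of the 18 sterol enzymes, 14 had a log2 change below 0 with KO#1 (47.5% of all tested features). With KO#2 14 had one above 0 (6431 of all 12985 tested features). ACSS2, which makes acetyl-CoA from acetate, fell with KO#1 when 1 aberrant KO#2 library was left out. In that fit 12.3% of all tested features passed with KO#1. In every group the library numbered 2 was the highest for 11 of the 18 sterol enzymes. Values are a quantile-normalized signal without unit. Differences are in log2(signal + 1), tested with limma for the 12985 features with a mean signal of at least 10, and counted as called where the p adjusted over all of them by Benjamini-Hochberg was below 0.05. In bulk RNA, fewer cells of a kind and less RNA per cell cannot be told apart.

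Of the 38 genes, 35 were tested. NPC1L1, an intestinal sterol uptake protein, had signals of 0 to 9.78 over the 9 libraries. APOE, a lipoprotein component, had 0 to 4, and THRSP, a nuclear protein of lipogenic tissues, was listed at 0 in every library. With KO#1 1 of 35 members was called, PLTP, which was higher (2.33% of all tested features were called in either direction and 1.36% were called higher). With KO#2 the count was again 1 of 35 (2.04% of all features in either direction, 1.17% higher), and for the mean of both guides 1 of 35 (3.1% and 1.65%). These comparisons share the sgControl libraries. The median log2 change of the 35 members was −0.22 with KO#1 and 0.28 with KO#2, against 0.03 and −0.01 over all tested features. With KO#2 replicate 1 left out, the KO#2 median was 0.13, against 0.03 over all tested features. Signs were negative for 27 members with KO#1 and for 14 with KO#2, against 47.5% and 50.5% of all tested features. Many members shared a pattern across libraries, described below, so their signs are not independent. Between the guides themselves, KO#2 minus KO#1, no member was called and 0 of 12985 features (0%) were called by limma; at an unadjusted p under 0.05 there were 3 members, LSS, DHCR7 and PNPLA3, and 529 features. Without KO#2 replicate 1, 13 features (0.1%) and no member were called between the guides. In KO#2 minus KO#1, 32 of 35 members were above 0 (6420 of all 12985 tested features). Their median was 0.44, against −0.01 over all tested features. With KO#2 replicate 1 left out, 30 members were above 0 (6404 of all tested features), with a median of 0.43. These signs are not independent either. The plot of log2 changes shows all 35.

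**Figure D1:**
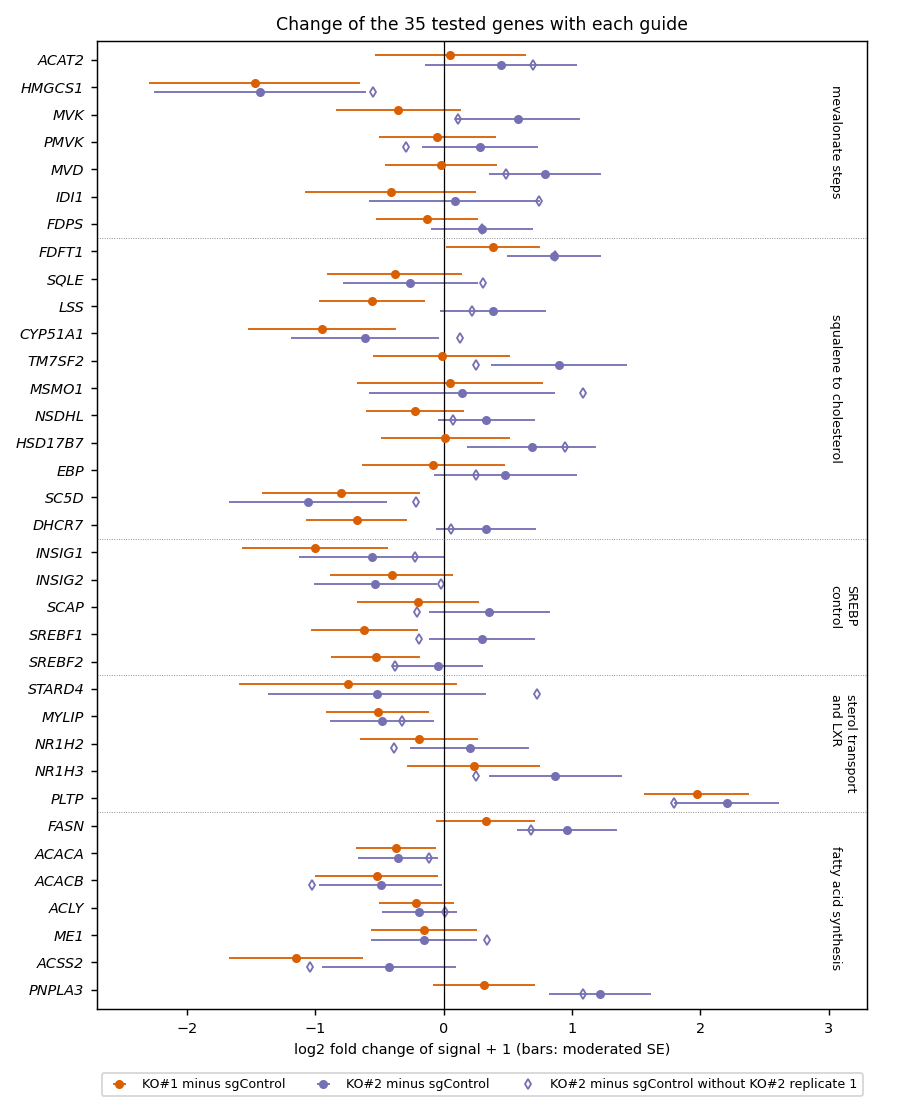
Log2 fold change of signal + 1 of the 35 tested members for KO#1 (orange) and KO#2 (purple) minus sgControl, with moderated SE bars; open diamonds are KO#2 without its replicate 1. PLTP stands at 1.97 and 2.21, while the enzymes lie on both sides of 0.

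One library stood apart. KO#2 replicate 1 correlated with the other KO#2 libraries at 0.672 and 0.737 (Pearson's r across features, log2 scale), and the other within-group pairs at 0.937 to 0.978. A feature with 10 reads had a signal of 55.7 in it and of 6.67 to 12.6 in the rest. Replicate numbers are places in sample order, and the labels state no pairing by them. The 7 of 7 renal carcinoma markers were above 0 in every library; leukocyte, endothelial, hepatocyte and podocyte markers were near 0, except CD14 at 17 in KO#2 replicate 1, and the fibroblast markers COL1A1 and PDGFRB summed to 88.8 to 134 in KO#1, 62.1 to 104 in KO#2 and 86.3 to 118 in sgControl. ELOVL5 transcript had log2 changes of −1.11 (KO#1) and −1.32 (KO#2), which did not pass (adjusted p = 0.383 and 0.24, limma). Without KO#2 replicate 1 it fell with KO#1 (−1.11, adjusted p = 0.0314) and had −0.80 with KO#2 (adjusted p = 0.162). A guide can disrupt a protein without lowering its transcript.

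KO#2 replicate 1 was often the extreme library, among the members as among all tested features. It was the highest of the 9 libraries for 17 of 35 members (39.5% of all tested features) and the lowest for 12 (37.4%). The 17 included MVD, LSS, DHCR7, SCAP, SREBF1, SREBF2, PLTP, FASN and ACSS2. The 12 included HMGCS1, SQLE, CYP51A1, SC5D, INSIG2, STARD4 and ACLY. The longest protein-coding transcript of the 17 had a median G+C content of 59.4% (50.5% to 65.6%), and that of the 12 of 40.6% (34.2% to 52.2%). Over the 35 members the difference of this library from KO#2 replicates 2 and 3 followed G+C content with a Pearson's r of 0.902 and a Spearman's rho of 0.870. Over the 11495 tested features with a transcript the values were 0.826 and 0.856. These correlations are across genes of the same libraries and describe them only. IDI1, INSIG2 and SC5D had 9, 8 and 10 reads in that library. The part of this library in the results was not tested beyond leaving it out. Values without it follow where the change of a single member with KO#2 is given.

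**Figure D2:**
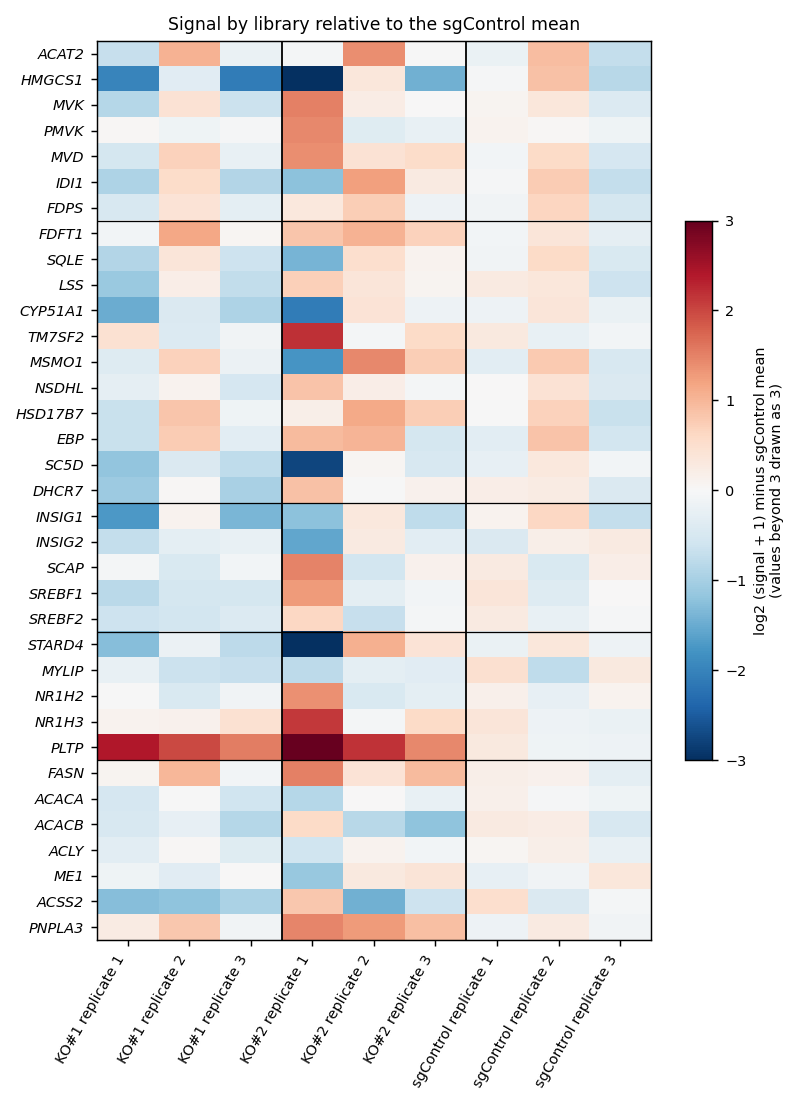
Log2(signal + 1) of the 35 members in the 9 libraries, KO#1, KO#2 and sgControl from left to right, minus the sgControl mean of the gene. The KO#2 replicate 1 column carries the extremes in both directions, PLTP is above the sgControl mean in all 6 KO libraries, and replicate 2 is warm for most sterol enzymes.

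The promoters of 4 members are shown for comparison with what follows. HMGCS1 and INSIG1 belong to the members that were highest in replicate 2 of every group, and SREBF2 and PLTP do not. Each run is the 250 bases upstream of a RefSeq transcription start (GRCh38.p14), 5′ to 3′ on the strand of the gene. Capitals mark CCAAT (bound by NF-Y), GGGCGG (bound by SP1) and TCACNCCAC, a form of the sterol regulatory element, on either strand. HMGCS1 is at chr5:43313413-43313662 on the minus strand, and INSIG1 at chr7:155297628-155297877 on the plus strand. SREBF2 is at chr22:41832855-41833104 on the plus strand, and PLTP at chr20:45912156-45912405 on the minus strand.
HMGCS1: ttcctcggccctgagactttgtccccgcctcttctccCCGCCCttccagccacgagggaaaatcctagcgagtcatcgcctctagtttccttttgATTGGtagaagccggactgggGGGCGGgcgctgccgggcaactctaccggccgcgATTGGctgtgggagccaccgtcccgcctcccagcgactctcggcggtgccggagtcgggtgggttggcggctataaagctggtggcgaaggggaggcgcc
INSIG1: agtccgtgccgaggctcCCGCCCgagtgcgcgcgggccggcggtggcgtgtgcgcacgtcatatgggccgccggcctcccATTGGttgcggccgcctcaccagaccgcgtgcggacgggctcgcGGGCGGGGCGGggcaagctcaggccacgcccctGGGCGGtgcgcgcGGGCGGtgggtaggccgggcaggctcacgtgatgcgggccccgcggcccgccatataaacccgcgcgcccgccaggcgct
SREBF2: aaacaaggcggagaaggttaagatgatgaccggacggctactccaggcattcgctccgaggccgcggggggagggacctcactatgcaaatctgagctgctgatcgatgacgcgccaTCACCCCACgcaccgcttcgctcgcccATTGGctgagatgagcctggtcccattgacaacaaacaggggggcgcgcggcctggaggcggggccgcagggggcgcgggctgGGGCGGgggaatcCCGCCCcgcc
PLTP: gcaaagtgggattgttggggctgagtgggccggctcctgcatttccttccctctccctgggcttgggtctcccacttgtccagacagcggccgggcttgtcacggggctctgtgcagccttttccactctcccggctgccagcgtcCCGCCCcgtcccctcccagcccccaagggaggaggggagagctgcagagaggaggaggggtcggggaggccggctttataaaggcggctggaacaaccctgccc

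NF-Y and SP1 are known partners of SREBP on its target promoters. A promoter was found for 33 of the 38 members. CCAAT on either strand occurred in 25 of the 33 (75.8%) and in 13 of 15 sterol enzymes (86.7%), against 41.5% of 9344 tested features and 37.0% of all 27305 genes with a promoter. GGGCGG occurred in 30 of 33 (90.9%), against 76.2% of the tested features and 46.2% of all genes. The sterol element TCACNCCAC was found in SREBF2 alone among the members, and in 1.22% of the tested features and 1.09% of all genes. The palindrome CACGTG, the core E-box, was found in INSIG1, SC5D and SCAP (9.09% of members, 11.5% of tested features). The direct repeat bound by LXR, searched in 1 exact form, was found in 0 members, 0 of 9344 tested features and 5 of all genes. With 0 among all tested features, this search could not show whether PLTP or any other member has an LXR site. PLTP has no CCAAT in the window shown. A gene counts where any of its RefSeq starts has the motif, and no motif overlaps were removed. Matches are letters in a window, not measured binding.

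The mevalonate steps turn acetyl-CoA into farnesyl diphosphate. None of the 7 passed with either guide; the lowest adjusted p was 0.609 with KO#1 and 0.465 with KO#2 (limma). Log2 changes lay between −1.47 and 0.05 for KO#1, and between −1.43 and 0.79 for KO#2. HMGCS1, the synthase of hydroxymethylglutaryl-CoA, had the largest change of its group. Its signals were 292, 918 and 267 in KO#1, 125, 1464 and 424 in KO#2, and 1132, 2109 and 643 in sgControl. In each group replicate 2 was highest, and the groups overlapped, since replicate 2 of KO#1 and of KO#2 exceeded sgControl replicate 3.

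The log2 change of HMGCS1 was −1.47 (SE 0.825, adjusted p = 0.609) with KO#1 and −1.43 (SE 0.825, adjusted p = 0.486) with KO#2, by limma. Without KO#2 replicate 1 the KO#2 value was −0.55 (adjusted p = 0.685). The tested genes nearest to HMGCS1 on chromosome 5, up to 20 on each side, had a median change of −0.68 with KO#1 and −1.10 with KO#2, and with that median removed from each library HMGCS1 had −0.79 and −0.33. Within a library the level of HMGCS1 was also set against the other 17 sterol enzymes, as its log2 signal minus their median. This difference was 0.39, 0.97 and 0.01 in KO#1, −1.89, 1.38 and 0.48 in KO#2, and 1.67, 1.86 and 1.13 in sgControl. All KO#1 libraries lay below all sgControl libraries, and KO#2 replicate 2 overlapped. Transcript lengths differ between these genes, so only the differences between libraries bear a meaning. HMGCS1 was also set against FDFT1 alone, a gene picked after the values were seen. The difference was −2.06, −1.66 and −2.33 in KO#1, −4.19, −0.87 and −2.29 in KO#2, and −0.10, 0.35 and −0.72 in sgControl. All 6 KO libraries were below sgControl here, but FDFT1 was itself above sgControl in every KO#2 library, which lowers the difference. The share of all features with such a separation was not counted for either difference, so neither adds to the test of HMGCS1.

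ACAT2, the cytosolic thiolase that joins acetyl-CoA units, had 191, 636 and 265 in KO#1, 296, 814 and 304 in KO#2, and 266, 582 and 186 in sgControl. Replicate 2 was the highest of each group. IDI1, the isopentenyl diphosphate isomerase, had 63.6, 178 and 65.9 in KO#1, 51.0, 284 and 147 in KO#2, and 118, 206 and 73.6 in sgControl, again with replicate 2 highest. FDPS, the farnesyl diphosphate synthase, had 1104, 2035 and 1252 in KO#1, 1908, 2588 and 1389 in KO#2, and 1435, 2405 and 1063 in sgControl. These 3 genes overlapped between all groups. MVK and PMVK, the kinases of mevalonate and of phosphomevalonate, ranged from 125 to 644 and from 167 to 584, and MVD, the diphosphomevalonate decarboxylase, from 289 to 1097. For each of the 3, KO#2 replicate 1 was the highest.

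Between squalene and cholesterol 0 of 11 enzymes passed with either guide (lowest adjusted p 0.628 for KO#1 and 0.339 for KO#2, limma). Log2 changes lay between −0.95 and 0.38 for KO#1, and between −1.06 and 0.90 for KO#2. CYP51A1, the lanosterol demethylase, had 223, 468 and 332 in KO#1, 147, 840 and 561 in KO#2, and 567, 803 and 547 in sgControl. All KO#1 libraries were below all sgControl libraries, and the KO#2 libraries spanned them. The change was −0.95 (SE 0.579, adjusted p = 0.663, and 0.065 without KO#2 replicate 1) with KO#1. With KO#2 it was −0.61 (adjusted p = 0.65), and 0.13 without KO#2 replicate 1.

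SC5D, the lathosterol desaturase, had the largest mean change of both guides among these 11. Its signals were 183, 306 and 245 in KO#1, 61.4, 432 and 300 in KO#2, and 354, 523 and 392 in sgControl. KO#1 lay wholly below sgControl, and KO#2 overlapped it through replicate 2. The log2 change was −0.80 (SE 0.618, adjusted p = 0.804) with KO#1 and −1.06 (SE 0.618, adjusted p = 0.491) with KO#2, by limma. Without KO#2 replicate 1 the KO#2 value was −0.21 and the adjusted p was 0.0729 with KO#1 and 0.719 with KO#2.

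FDFT1, the squalene synthase at the branch toward sterols, had 1215, 2895 and 1349 in KO#1, 2307, 2671 and 2079 in KO#2, and 1214, 1660 and 1061 in sgControl. All KO#2 libraries exceeded all sgControl libraries, and KO#1 overlapped sgControl. With KO#2 the change was 0.86 (SE 0.368, adjusted p = 0.339), and 0.87 without KO#2 replicate 1 (0.181). With KO#1 it was 0.38 (adjusted p = 0.894), and −0.21 once the neighbouring genes' median was removed. With that median removed the KO#2 change was 0.50 (limma adjusted p = 0.617).

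The remaining enzymes overlapped with sgControl in each KO group. SQLE, the squalene epoxidase, had 672, 1574 and 801 in KO#1, 467, 1759 and 1319 in KO#2, and 1150, 1820 and 891 in sgControl. MSMO1, a methylsterol oxidase, had 476, 1005 and 547 in KO#1, 182, 1682 and 1033 in KO#2, and 495, 1071 and 447 in sgControl. Both were highest in replicate 2 of every group and lowest of all 9 in KO#2 replicate 1. LSS, which cyclizes squalene epoxide to lanosterol, ranged from 302 to 1070, and DHCR7, the last reductase before cholesterol, from 567 to 2226. NSDHL, a dehydrogenase of the demethylation steps, ranged from 129 to 332, and TM7SF2, a sterol reductase, from 121 to 736. All 4 were highest in KO#2 replicate 1. HSD17B7, a ketosterol reductase, and EBP, the sterol isomerase, ranged from 62.1 to 221 and from 138 to 449 and were highest in replicate 2. For HSD17B7, KO#2 overlapped sgControl only through replicate 1.

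Replicate 2 was the highest library of all 3 groups at once for 11 of the 18 sterol enzymes and 14 of the 35 members, against 11.2% of all tested features. The 11 were ACAT2, HMGCS1, IDI1, FDPS, FDFT1, SQLE, CYP51A1, MSMO1, HSD17B7, EBP and SC5D. The other 3 members were INSIG1, STARD4 and ACLY. Replicate 1 was highest in all groups for 5 members (PMVK, TM7SF2, SCAP, NR1H2 and PLTP; 11.6% of all features), and replicate 3 for 1, ME1 (6.15%). With KO#2 replicate 1 set aside, replicate 2 was highest for 14 of 18 sterol enzymes, against 15.5% of all features, the added ones being MVK, LSS and NSDHL. The median of replicate 2 minus the mean of the other 2 libraries over the 18 enzymes was 1.08 in KO#1, 0.68 in KO#2 and 0.75 in sgControl (log2), against −0.03, −0.01 and −0.01 over all tested features. In sgControl 17 of 18 enzymes were above 0, in KO#1 16 and in KO#2 11. HMGCS1 had 1.72 in KO#1, 2.66 in KO#2 and 1.31 in sgControl. The KO#2 values include replicate 1. KO#2 replicate 2 minus replicate 3 alone was 1.79 for HMGCS1. Its median over the 18 enzymes was 0.41, against −0.02 over all tested features, with 14 of 18 above 0. For comparison, the median change of the 18 enzymes against sgControl was −0.17 with KO#1 and 0.33 with KO#2. The labels give no batch for replicate 2, so what set it apart was not tested. Without KO#1 replicate 2 the change of FDFT1 with KO#1 was −0.00876. CCAAT and GGGCGG matches occur in the promoter runs above of HMGCS1, INSIG1 and SREBF2. They also occur in 25 and 30 of the 33 members with a promoter. Whether motifs go with the replicate 2 pattern was not tested.

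**Figure D3:**
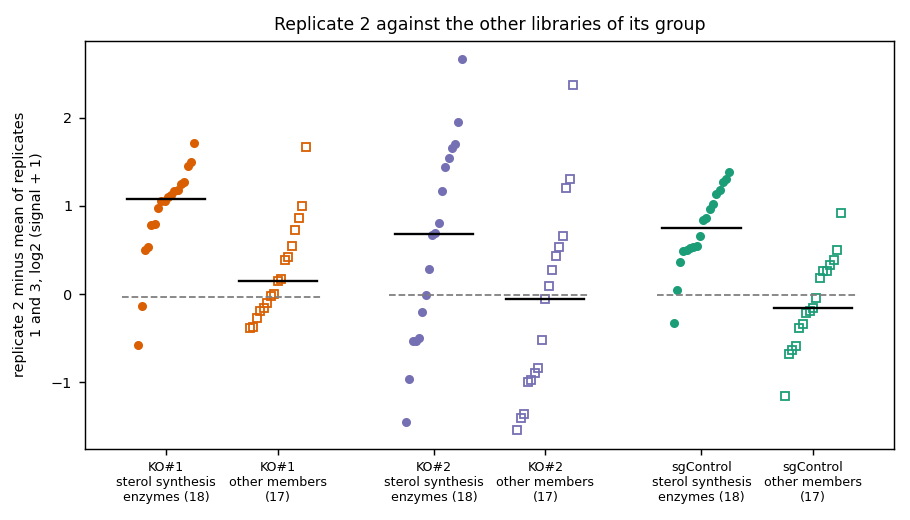
Replicate 2 minus the mean of replicates 1 and 3 of its group, in log2(signal + 1), for the 18 sterol synthesis enzymes (filled circles) and the 17 other members (open squares) in KO#1, KO#2 and sgControl; solid lines are medians and dashed lines the median of all tested features. The enzymes' medians are 1.08, 0.68 and 0.75.

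Among the 5 genes of SREBP control none passed with all libraries (lowest adjusted p 0.613 for KO#1 and 0.639 for KO#2, limma). All 5 had negative log2 changes with KO#1 (47.5% of all tested features), with a median of −0.53. With KO#2 2 were above 0 and 3 below (50.5% of all tested features below). Without KO#2 replicate 1 all 5 were below 0 with KO#2 (47.7%), with a median of −0.21. INSIG1, the retention protein that is itself a target of SREBP, had 294, 1055 and 376 in KO#1, 419, 1215 and 576 in KO#2, and 1048, 1499 and 595 in sgControl. Replicate 2 was highest in every group and the groups overlapped. Its change was −1.0 (SE 0.566, adjusted p = 0.613) with KO#1 and −0.56 (SE 0.566, adjusted p = 0.675) with KO#2, or −0.23 (adjusted p = 0.855) with KO#2 without its replicate 1. With the median of its neighbouring genes removed, INSIG1 had −0.55 with KO#1 and −0.23 with KO#2. INSIG2, its paralog, had 80.1, 107 and 113 in KO#1, 44.1, 158 and 105 in KO#2, and 96.6, 148 and 158 in sgControl, and the groups overlapped. The change of INSIG2 was −0.40 with KO#1 and −0.53 with KO#2 (adjusted p = 0.951 and 0.639), and −0.02 with KO#2 without its replicate 1.

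SREBF1 had 1273, 1561 and 1554 in KO#1, 5391, 1815 and 2114 in KO#2, and 2889, 1701 and 2268 in sgControl. SREBF2 had 1871, 1973 and 2149 in KO#1, 4436, 1774 and 2757 in KO#2, and 3452, 2454 and 2816 in sgControl. For both, all KO#1 libraries lay below all sgControl libraries, while KO#2 replicate 1 was the highest of 9. With KO#1 the change was −0.62 (SE 0.414, adjusted p = 0.722) for SREBF1 and −0.53 (SE 0.349, adjusted p = 0.713) for SREBF2. With KO#2 it was 0.30 for SREBF1 and −0.05 for SREBF2 (adjusted p = 0.756 and 0.96), and without KO#2 replicate 1 it was −0.19 and −0.38. SCAP had 652, 498 and 639 in KO#1, 1909, 465 and 745 in KO#2, and 818, 495 and 776 in sgControl. Only KO#2 replicate 1 stood off the rest, and the change of SCAP was −0.20 with KO#1 and 0.36 with KO#2, or −0.21 without that library (adjusted p = 1.00, 0.746 and 0.727). In all, 5 of 35 members had every KO#1 library below every sgControl library (CYP51A1, SC5D, SREBF1, SREBF2 and ACSS2), against 15.9% of all tested features, and 0 had every KO#2 library below (8.34%).

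Sterol transport and LXR genes held the 1 call. PLTP had 4189, 3136 and 2330 in KO#1, 6472, 3575 and 2152 in KO#2, and 975, 730 and 711 in sgControl. The lowest KO library was above the highest sgControl library, as in 6.61% of all tested features. Means were 3218 ± 932 in KO#1, 4066 ± 2202 in KO#2 and 805 ± 147 in sgControl (SD, n = 3 each).

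The log2 change of PLTP was 1.97 (SE 0.411, limma adjusted p = 0.0332) with KO#1 and 2.21 (SE 0.411, adjusted p = 0.0219) with KO#2. For the mean of both it was 2.09 (SE 0.356, adjusted p = 0.00905). Without KO#2 replicate 1 the values were 1.97, 1.80 and 1.88, with adjusted p = 0.00146, 0.00676 and 0.00091; in that fit 12.3%, 8.02% and 14.6% of all features were called. Leaving out any 1 sgControl library ended the call with each guide (adjusted p from 0.077 to 0.168), and leaving out any 1 KO#1 library ended that with KO#1 (from 0.0774 to 0.189). The nearest tested genes on chromosome 20 had median changes of 0.49 and 0.67; with them removed PLTP had 1.49 and 1.54 (adjusted p = 0.0289 and 0.0301; 3.48% and 3.1% of all features called).

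The genes of LXR itself did not pass the test. NR1H3, encoding LXR alpha, had 100, 102 and 129 in KO#1, 406, 89.1 and 138 in KO#2, and 119, 84.1 and 80.7 in sgControl. NR1H2, encoding LXR beta, had 428, 317 and 402 in KO#1, 1125, 314 and 352 in KO#2, and 479, 363 and 468 in sgControl. KO#1 overlapped sgControl for both, and KO#2 replicate 1 was the highest of 9 for both, while KO#2 replicates 2 and 3 lay below sgControl for NR1H2. With KO#2 the change was 0.87 for NR1H3 and 0.20 for NR1H2, and 0.25 and −0.38 without KO#2 replicate 1. STARD4, a cytosolic sterol carrier, had 302, 651 and 424 in KO#1, 90.1, 1533 and 967 in KO#2, and 643, 925 and 662 in sgControl. KO#2 replicates 2 and 3 were above sgControl and replicate 1 far below. Its change with KO#2 was −0.52, and 0.73 without KO#2 replicate 1 (limma adjusted p = 0.796 and 0.231). MYLIP, a ubiquitin ligase for lipoprotein receptors that LXR induces, had 143, 106 and 102 in KO#1, 95.1, 134 and 130 in KO#2, and 232, 96.8 and 202 in sgControl. The change of MYLIP was −0.51 with KO#1 and −0.48 with KO#2 (limma adjusted p = 0.809 and 0.619). Without KO#2 replicate 1 the KO#2 value was −0.32. These signs are opposite to those of PLTP.

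**Figure D4:**
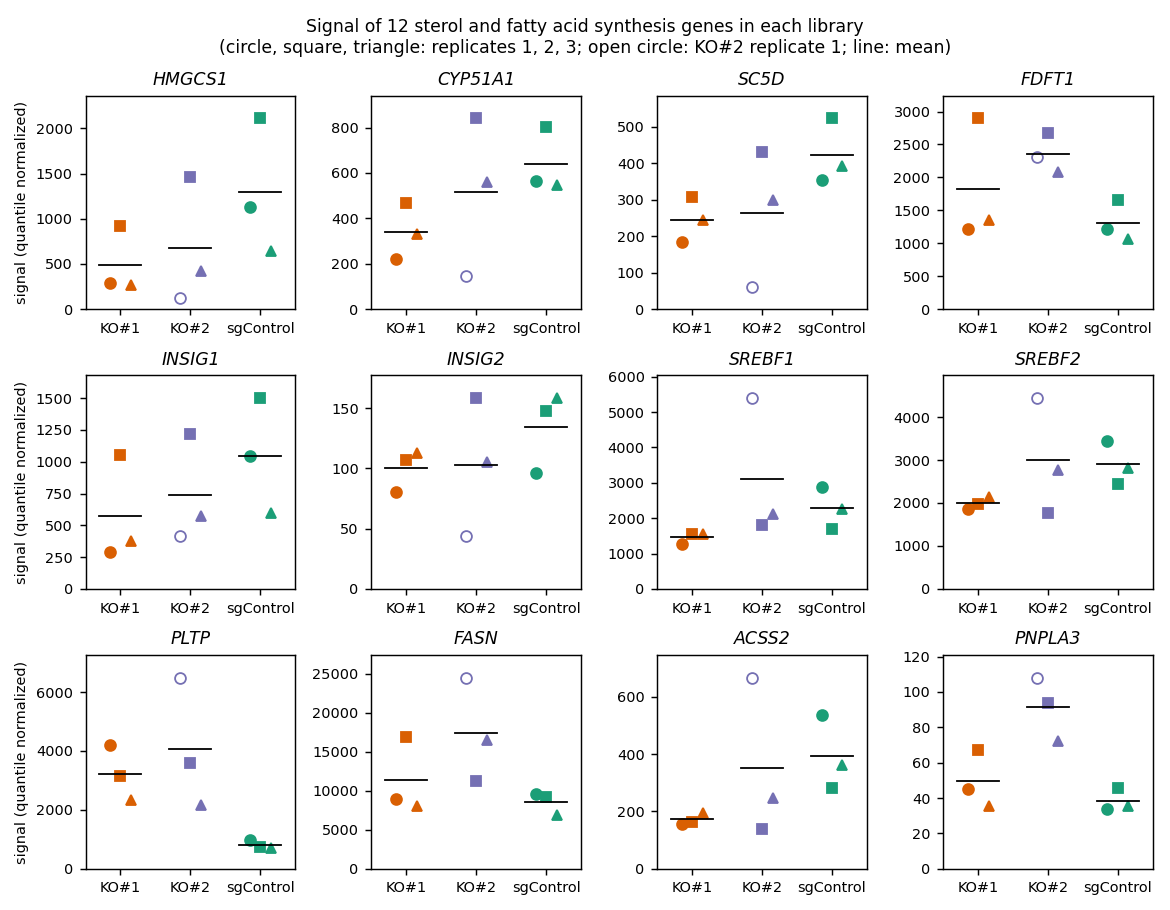
Signal of 12 members in each library of KO#1, KO#2 and sgControl; symbols mark replicates 1 to 3, the open circle KO#2 replicate 1, and lines the group means. PLTP is the panel in which all 6 KO libraries exceed sgControl, and the square, replicate 2, is highest in each group for HMGCS1, CYP51A1, SC5D, FDFT1 and INSIG1.

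In fatty acid synthesis, ACSS2 was the member with the largest mean change. Its signals were 157, 163 and 196 in KO#1, 665, 139 and 247 in KO#2, and 537, 283 and 363 in sgControl. All KO#1 libraries were below all sgControl libraries (15.9% of all tested features). KO#2 replicates 2 and 3 were below them too, and KO#2 replicate 1 was above. The share of all features with KO#2 replicates 2 and 3 alone outside sgControl is not given, for ACSS2 or other members. Such a separation therefore adds nothing to the tests. With all libraries the change of ACSS2 was −1.15 (SE 0.52, adjusted p = 0.443) with KO#1 and −0.42 (SE 0.52, adjusted p = 0.723) with KO#2. Without KO#2 replicate 1 ACSS2 fell with KO#1 (−1.15, limma adjusted p = 0.0314) and for the mean of both (−1.09, adjusted p = 0.0212). With KO#2 it had −1.04 (adjusted p = 0.0869). In that fit 12.3%, 14.6% and 8.02% of all features were called, in the same order. Of the 9 fits with 1 library left out, this was the only 1 that called ACSS2 with KO#1. The library left out is in neither group of the KO#1 comparison, and the KO#1 change did not move. The neighbours of ACSS2 on chromosome 20, the chromosome of PLTP, were higher, with medians of 0.55 and 0.79. With them removed ACSS2 fell with KO#1 (−1.70, adjusted p = 0.0168), and had −1.21 with KO#2 (adjusted p = 0.0874). In that fit 3.48% and 3.1% of all features were called.

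FASN, the fatty acid synthase, had 8940, 16936 and 8044 in KO#1, 24413, 11235 and 16546 in KO#2, and 9594, 9245 and 6935 in sgControl. All KO#2 libraries were above all sgControl libraries, as for FDFT1, PLTP and PNPLA3 among the 35 members (4 of 35; 9.62% of all features). The change was 0.33 with KO#1 and 0.96 with KO#2 (SE 0.386, limma adjusted p = 0.948 and 0.305). Without KO#2 replicate 1 the KO#2 value was 0.68 (adjusted p = 0.262). The tested genes around FASN on chromosome 17 had medians of 0.55 and 0.95, and with them removed FASN had −0.22 and 0.01.

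PNPLA3, a lipid droplet acyltransferase and lipase, had 45.3, 67.3 and 35.6 in KO#1, 108, 94.0 and 72.0 in KO#2, and 34.0, 45.9 and 35.7 in sgControl. KO#2 lay wholly above sgControl and above KO#1, and KO#1 overlapped sgControl. The change was 0.31 with KO#1 and 1.22 with KO#2 (SE 0.399; adjusted p = 0.957 and 0.199), and 1.09 with KO#2 without its replicate 1 (0.0866). KO#2 minus KO#1 was 0.90 (adjusted p = 0.748).

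The carboxylases and the enzymes that feed them overlapped with sgControl in both knockouts, ACACB with KO#2 only through replicate 1. ACLY, which makes cytosolic acetyl-CoA from citrate, had 6790, 8710 and 6594 in KO#1, 5633, 9073 and 8017 in KO#2, and 8774, 9526 and 7256 in sgControl. ACACA, the cytosolic acetyl-CoA carboxylase, ranged from 2434 to 3645 in KO#1, from 2037 to 3675 in KO#2 and from 3365 to 4090 in sgControl. ACACB, the mitochondrial form, ranged from 105 to 160, from 81.2 to 282 and from 135 to 227 in the same order of groups. KO#2 replicates 2 and 3 of ACACB, at 105 and 81.2, lay below all sgControl libraries. Its change with KO#2 was −0.49 (limma adjusted p = 0.664), and −1.02 without KO#2 replicate 1 (adjusted p = 0.0754). ME1, the malic enzyme that yields NADPH, ranged from 603 to 764 in KO#1, from 345 to 996 in KO#2 and from 645 to 964 in sgControl.

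**Figure D5:**
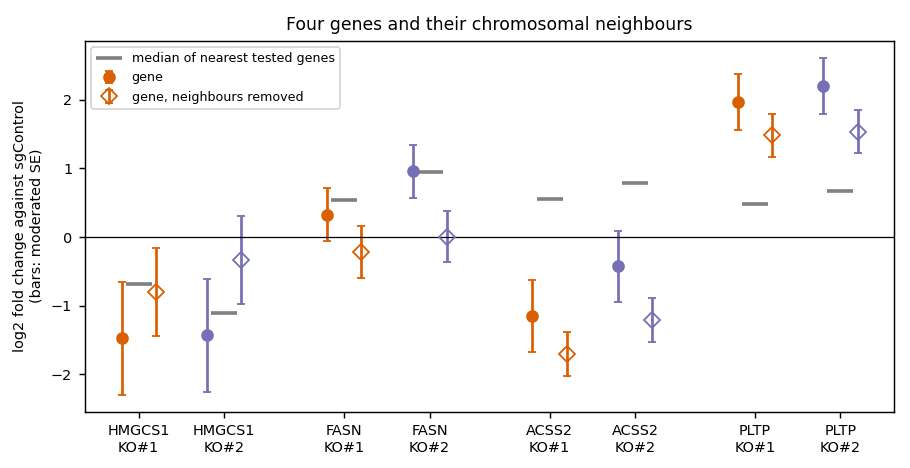
Log2 fold change against sgControl of HMGCS1, FASN, ACSS2 and PLTP (filled, with moderated SE), the median change of the nearest tested genes on the chromosome (grey bars), and the change after removing that median in each library (open diamonds), for KO#1 (orange) and KO#2 (purple). After removal FASN is at −0.22 and 0.01, PLTP at 1.49 and 1.54, and ACSS2 at −1.70 and −1.21.

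A further 46 genes of the same pathways were listed for comparison, of which 43 were tested. With KO#1 1 was called higher, SCARB1, and 1 lower, MLXIPL (2.33% of all tested features were called in either direction). With KO#2 1 was called higher, SCARB1, and 0 lower (2.04% of all tested features in either direction). These counts are near the background. SCARB1, the receptor for high-density lipoprotein, was called with both guides. It had 651, 691 and 423 in KO#1, 1077, 455 and 576 in KO#2, and 150, 178 and 129 in sgControl. All 6 KO libraries were above sgControl, as for 4 of the 43 genes and 6.61% of all tested features. The change was 1.93 (SE 0.383, limma adjusted p = 0.0267) with KO#1 and 2.11 (adjusted p = 0.0186) with KO#2. Leaving out any 1 sgControl library ended both calls (adjusted p from 0.0582 to 0.151), as did leaving out any 1 KO#1 library for KO#1 (from 0.0661 to 0.147).

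MLXIPL, a glucose-responsive factor of lipogenic genes, had 9.78, 8.67 and 7.56 in KO#1, 24.7, 21.6 and 26.1 in KO#2, and 87.4, 50.3 and 90.7 in sgControl. All KO#1 libraries and all KO#2 libraries lay below all sgControl libraries. Of all tested features, 15.9% had all KO#1 libraries below sgControl and 8.34% all KO#2 libraries. It fell by 2.96 with KO#1 (SE 0.435, adjusted p = 0.0059) and had −1.58 with KO#2 (adjusted p = 0.113; 0.0299 without KO#2 replicate 1); without sgControl replicate 1 or 3 the KO#1 call was lost (0.0535 and 0.0534). KO#2 minus KO#1 was not called (adjusted p = 0.748).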

How the data were processed

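Per the labels' protocols, RNA from 9 ACHN libraries was purified on RNeasy columns, made into libraries with the NEBNext Ultra Directional kit and sequenced on a NextSeq500. The deposited signal is, going by the name of the authors' table, total read counts after quantile normalization. All 9 columns hold the same sorted values, so total raw depth is unknown. By the read numbers read back, 10257 features had at least 10 reads in KO#2 replicate 1, and 12421 to 13254 in each other library. The submitters' processing notes list mm10, a mouse build, although gene names are human. Aligner, counter and strand handling: not given in sources used here, so paralogs and overlapping genes are uncertain. No sample column was unused (0).

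Values were taken as log2(signal + 1); 12985 features with a mean of at least 10 were tested with limma 3.58.1 (R 4.3.3) in 1 model of 3 groups with a variance trend, two-sided, Benjamini-Hochberg adjusted. Fold changes on this scale understate low genes. On simulated data for KO#1 minus sgControl, with 12985 features, 40% of genes changed by 2 log2 units and 87% of those changed by 4 were recovered. Read numbers were read back from runs of equal reads in table order. Motifs came from RefSeq promoters (GRCh38.p14), G+C content from GENCODE transcripts, and gene order from RefSeq.

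The members and lists were chosen with earlier results of these data known. Values in every library are given for called members, members with no overlap, the SREBP control genes and the largest mean change of each role; further genes with values, FDFT1, FASN, PNPLA3 and CYP51A1 among them, were chosen after their values were seen. Alternatives were pseudocounts of 0.5 and 10, no filter, a minimum mean of 50, only the groups compared, no variance trend, library weights, median centring and leaving out each library. Removal of neighbouring genes' median and a second weight estimator were added after seeing the data. A result on the comparison list is not reported here.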

Additional observations from a re-analysis of the deposited data

How the results depend on the processing

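No paired analysis was possible because the labels give no replicate numbers to pair by; those used are places in sample order, and whether libraries of one number share a source was not tested. With 3 libraries a group and total raw depth unknown, small changes could not be resolved. Against 1 member called with each guide and with their mean, KO#1 gave 0 with a minimum mean of 50, with no filter and with no variance trend, 2 with only the groups compared and 2 with neighbouring genes removed, and 0 to 2 with 1 library left out. KO#2 gave 0 with only the groups compared, and 0 to 1 with 1 library left out. The mean gave 2 with neighbouring genes removed and 0 to 2 with 1 library left out; it has no fit with only the groups compared. Library weights by limma's default estimator, which did not converge and gave KO#2 replicate 3 a weight of 1.879e-05, called 8, 0 and 2 members (KO#1, KO#2, mean). The gene by gene estimator, added after those calls were seen, called 6, 1 and 3; the 6 were CYP51A1, SC5D, SREBF1, SREBF2, PLTP and ACSS2. Over all features, against 303, 265 and 403 called, a minimum mean of 50 gave 141, 137 and 201, default weights 3506, 113 and 1279, gene by gene weights 2765, 1293 and 2808, and leaving out 1 library 96 to 1592, 95 to 1042 and 155 to 1897. Only the groups compared gave 1883 with KO#1 and 79 with KO#2. Between the guides, against 0, no variance trend gave 2, a pseudocount of 10 gave 4 and gene by gene weights 24.

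Signs turned, against KO#2 changes in the report, under default weights for CYP51A1 (0.25), HMGCS1 (0.25), INSIG1 (0.37), INSIG2 (0.0775), SCAP (−0.45) and SREBF1 (−0.21), under gene by gene weights for CYP51A1 (0.00346), SCAP (−0.10) and SREBF1 (−0.19), and with neighbouring genes removed for CYP51A1 (0.16). With KO#1, removing neighbouring genes turned FASN (−0.22) and FDFT1 (−0.21). With 1 library left out the KO#2 change spanned −1.04 to 0.0906 for ACSS2, −1.13 to 0.13 for CYP51A1, −0.21 to 0.81 for SCAP, −0.19 to 0.60 for SREBF1 and −0.38 to 0.28 for SREBF2, and the KO#1 change spanned −0.00411 to 0.53 for FASN and −0.00876 to 0.62 for FDFT1. The cause was not tested.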
